A study of Mus musculus with 12 samples.

Results

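All 12 libraries of the study, out of 12, were used here to ask whether a high-fat diet changed adipocyte precursor cells in the same way in a visceral and in a subcutaneous fat depot. For each gene, the diet change in the subcutaneous depot was subtracted from that in the visceral depot, and this difference of log2 changes is called the interaction. Of 14398 genes in the count table, 14266 passed the low-count filter and were tested. The cells came from male C57Bl6/J mice of 6 to 8 weeks. They were sorted from perigonadal fat (VWAT, visceral) or inguinal fat (SWAT, subcutaneous) as CD45- CD31- CD29+ CD34+ Sca1+ cells, with or without CD24. The VWAT_SD and SWAT_SD groups ate a standard diet (Harlan 2018S) and carry the label of day 0. The VWAT_HFD and SWAT_HFD groups ate a high-fat diet (D12492, 60% lard) for 3 days. Each group has 3 libraries, and each library is a pool of cells from 3 mice. All 4 groups share strain, sex, age range and gate, and the labels name no altered gene. Day of collection goes with diet, so that the diet and the day cannot be told apart. The labels do not say whether the VWAT and SWAT libraries of a diet came from the same mice, and p-values measure only the spread between these pools.

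Adipocyte precursors are fibroblast-like cells of the fat stroma that divide and can become fat cells. Feeding a diet rich in fat is known to make precursors of visceral fat enter the cell cycle within days, and depots are known to differ in how strongly they do so. Cell division runs through an early programme of DNA replication genes, read out by E2F factors, and a later programme of mitotic genes, read out from the CHR and CCAAT promoter elements. Growing cells also make cholesterol, whose synthesis and uptake genes are controlled together by the sterol sensor SREBP-2. The title of the series also points to oleic acid in the diet and to LXR alpha (Nr1h3), an oxysterol receptor whose target genes export cholesterol.

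Libraries held 17.6 M to 56.1 M counts in genes. The first principal component of log2 CPM (counts per 1e+06 counts) took 63.64% of the variance and separated the depots, and the second took 15.84% and separated the diets. VWAT_HFD replicate 3 stood apart on the second: it lay at -2.05, whereas its group mates lay at 36.96 and 45.99 and VWAT_SD at -32.35 to -24.39. SWAT_HFD replicate 2 stood apart in leukocyte markers: 11 of 13 listed ones are in the table, and their summed level was 82.0 CPM there against 10.4 to 24.5 CPM in the other 11 libraries. In that list Cd3e was at 0 in 3 libraries and Ptprc, which encodes CD45, reached at most 6.93 CPM. Of the gate's own genes, Itgb1 (CD29), Cd34 and Ly6a (Sca1) had at least 8825 counts in every library, and Cd24a at least 80 with at most 19.7 CPM. Results are given for 12 libraries and, where they differ, for the 10 libraries left without these 2. The 2 were named with earlier results of these data known. Since VWAT_HFD replicate 3 lay nearer VWAT_SD than its group mates did, leaving it out favours larger diet changes in VWAT.

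**Figure D1:**
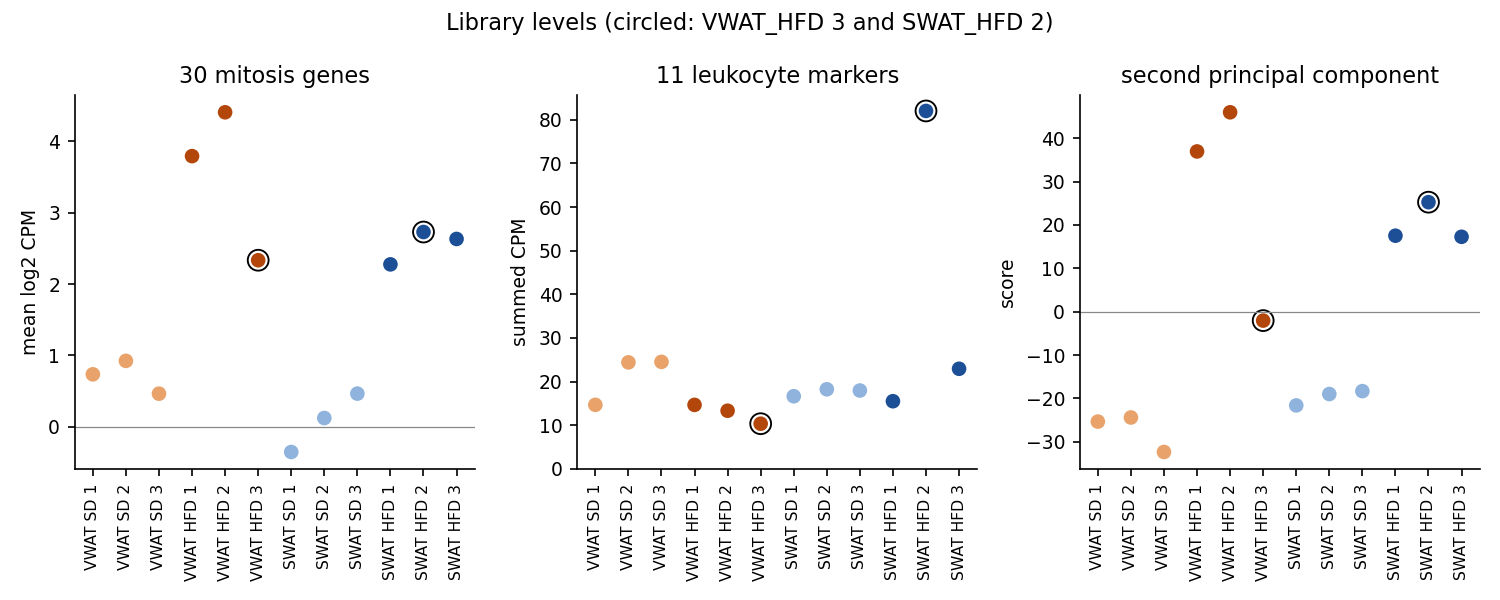
Each point is 1 of 12 libraries (n = 3 a group), and the circled points are VWAT_HFD replicate 3 and SWAT_HFD replicate 2. Left, mean log2 CPM of 30 mitosis genes: VWAT_HFD replicate 3 lies at 2.33, below the other 2 of its group at 3.79 and 4.41. Middle, summed CPM of 11 leukocyte markers: SWAT_HFD replicate 2 lies at 82.0. Right, score on the second principal component: VWAT_HFD replicate 3 lies at -2.05.

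No gene had an interaction that passed an adjusted p of 0.05 over 12 libraries (0% of 14266 tested with edgeR's quasi-likelihood test), and the lowest adjusted p was 0.205, for Hp. At an unadjusted p under 0.05 there were 1026 genes (7.19%), of which 438 (3.07%) moved more upward in VWAT and 588 (4.12%) more upward in SWAT. DESeq2 passed 35 (0.245%) on the same libraries and limma voom 0, with 967 genes at an unadjusted p under 0.05. With the 10 libraries left without these 2, 46 genes passed (0.321%), 31 upward (0.217%) and 15 downward (0.105%). Leaving out VWAT_HFD replicate 3 alone gave 135 calls, and leaving out any other single library gave 0. The median standard error of the interaction was 0.20 on the log2 scale. In 10576 genes (74.13%) the 95% interval of the interaction lay within 2-fold either way.

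The diet change itself was called far more often in VWAT than in SWAT. In VWAT 1232 genes rose (8.64%) and 996 fell (6.98%), while in SWAT 138 rose (0.967%) and 21 fell (0.147%). The median standard errors were close (0.14 in both), but the 4 groups share 1 estimate of spread in the fit. Their closeness therefore does not show that both depots varied alike. For the same reason, dropping a library of 1 depot can move the calls of the other. The mean diet change over both depots passed in 1493 genes upward (10.5%) and 1252 downward (8.78%). These counts rest on single libraries. Dropping VWAT_SD replicates 1, 2 or 3 left 1394, 1269 or 967 calls in VWAT, and dropping VWAT_HFD replicates 1, 2 or 3 left 1322, 757 or 4266. In SWAT no call was left when any 1 SWAT_SD library or SWAT_HFD replicate 2 was dropped (0 calls). Dropping SWAT_HFD replicate 1 or 3 left 50 or 98 SWAT calls, dropping 1 VWAT_SD library 66 to 80, and dropping VWAT_HFD replicate 3 gave 615. For the mean change, the count was 1799 when VWAT_SD replicate 3 was dropped, 1548 for VWAT_HFD replicate 2 and 4644 for VWAT_HFD replicate 3. With the 10 libraries left when both that stood apart were dropped, 2162 genes rose (15.1%) and 1892 fell (13.2%) in VWAT, and 200 rose (1.4%) and 49 fell (0.342%) in SWAT.

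Direction was mostly common to the depots. Called genes had larger median changes in VWAT whichever depot made the call, though no interaction passed over 12 libraries. Of the 1232 genes that rose in VWAT, 1164 (94.48%) also had a positive change in SWAT, with a median log2 change of 0.70 in VWAT and 0.33 in SWAT. Of the 996 that fell in VWAT, 905 (90.86%) had a negative change in SWAT, with medians of -0.58 and -0.22. Choosing genes by their VWAT call favours VWAT, so the reverse choice is given too. The 138 genes that rose in SWAT had medians of 1.98 there and 2.36 in VWAT, and 135 of them were positive in VWAT. The 21 that fell in SWAT had medians of -0.81 there and -0.93 in VWAT, and 19 were negative in VWAT. Over all genes 73.59% had the same sign. Across genes, which are not independent replicates, the changes in the depots had a Pearson r of 0.57 and a Spearman rho of 0.58 (0.61 and 0.61 with 10 libraries). The depots share no library, but may share mice.

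**Figure D2:**
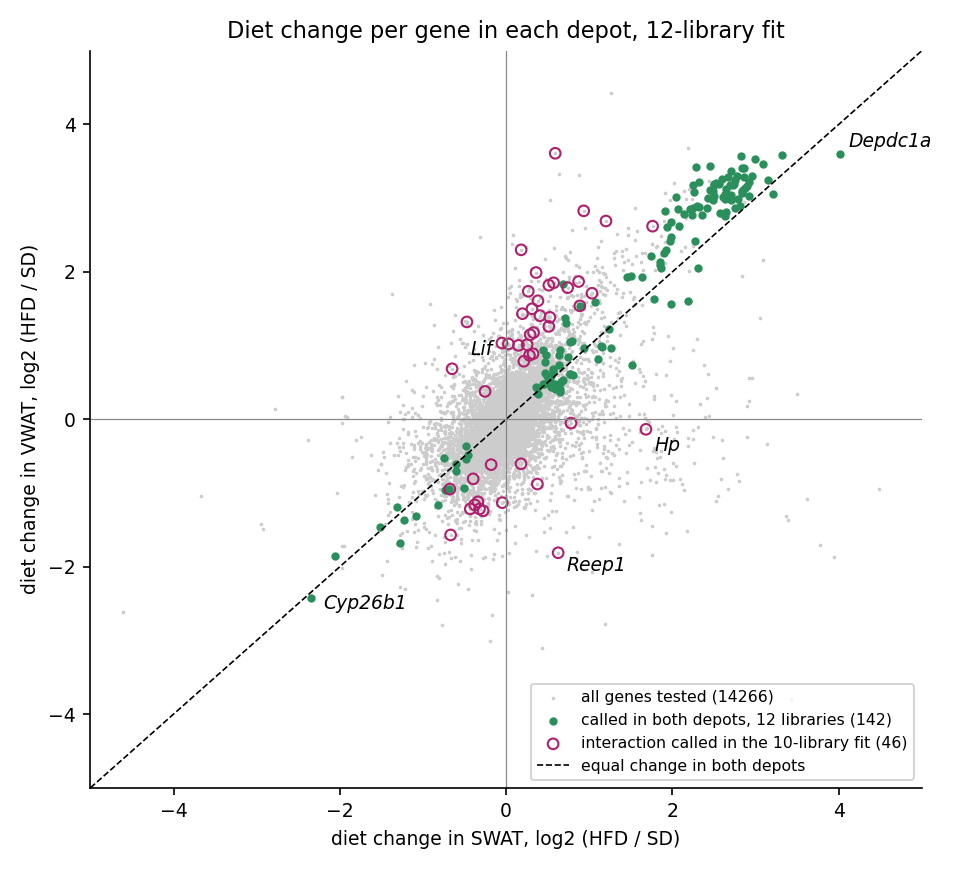
Each point is 1 gene, with its log2 diet change (HFD minus SD) in SWAT on the horizontal axis and in VWAT on the vertical axis, from the 12-library fit. Filled green points are the 142 genes that passed in both depots, rings are the 46 interactions called with 10 libraries, and the dashed line marks equal change; most rings lie farther from 0 on the VWAT axis, and 1 gene lies outside the plotted range.

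Of 125 genes that rose in both depots, 25 were among the 30 listed mitosis genes. A gene was counted as shared when it passed in VWAT and in SWAT in the same direction: 125 rose in both (0.876%), 17 fell in both (0.119%) and 0 passed in opposite directions. The total of 142 rests on the SWAT test, and was 0 when any SWAT_SD library or SWAT_HFD replicate 2 was dropped. Dropping VWAT_SD replicates 1, 2 or 3 left 55, 65 or 67 shared genes, dropping VWAT_HFD replicate 1 or 3 gave 92 or 547, and dropping SWAT_HFD replicate 1 or 3 left 41 or 69. A looser description, with no test, is that in 1641 genes (11.5%) the HFD libraries lay beyond the SD libraries in the same direction in both depots. In the 10 libraries, 190 genes (1.33%) were shared rises and 44 (0.307%) shared falls.

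The listed mitosis genes showed the shared rise most fully. All 30 rose in VWAT (beside 8.64% of all genes) and 25 in SWAT (beside 0.967%), with median log2 changes of 3.17 and 2.64. Mki67, the marker of cycling cells, was at 9.46, 10.4 and 5.59 CPM in VWAT_SD and 61.0, 114 and 32.4 CPM in VWAT_HFD. In SWAT it was at 3.25, 5.0 and 4.17 CPM on SD and 25.9, 36.5 and 31.4 CPM on HFD. The diets do not overlap in either depot, the rise was 8.15-fold in VWAT and 7.6-fold in SWAT, and the interaction was 0.10. Cdk1, the kinase that starts mitosis, went from 1.24 to 2.29 CPM up to 5.53 to 26.4 CPM in VWAT, and from 0.478 to 1.51 up to 5.22 to 6.89 CPM in SWAT. Depdc1a, a gene of mitotic cells, had the largest shared rise by the smaller of its depot changes, with log2 changes of 3.60 (SE 0.53) and 4.02 (SE 0.67). Next in that order came Hmmr, a spindle and hyaluronan-binding protein, at 3.58 and 3.32, and Cenpf, a kinetochore protein, at 3.25 and 3.15. In bulk RNA a larger share of dividing cells and more of these transcripts per cell cannot be told apart.

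Whether mitotic genes rose more in VWAT depended on its libraries. The median interaction of the 30 was 0.48, beside -0.00 over all genes, and 28 were positive beside 49.37% of all genes. Only Bub1, a spindle checkpoint kinase, reached an unadjusted p under 0.05, at 1.49 (SE 0.69, unadjusted p 0.0499, edgeR). The median was 0.93 in the 10 libraries, and -0.03 when VWAT_HFD replicate 2 was dropped, with 12 of 30 positive. The 25 calls in SWAT became 30 when VWAT_HFD replicate 3 was dropped, and 0 when any SWAT_SD library or SWAT_HFD replicate 2 was.

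The promoters of mitotic, replication and cholesterol genes differed in the motifs they hold, and 4 are shown as examples. Other members of each group hold other matches, and the shares per group follow the sequences. Sequences are from RefSeq on GRCm38.p6, which is not the build of the counts; 9775 of 14266 genes matched, with 12551 windows of 300 bases around a start. The motifs searched, on both strands, were TTTGAA (CHR), CCAAT (NF-Y), GGCGGGA (E2F) and TCACNCCAC (SREBP), and none of these holds another. Each stretch is the 150 bases before a start, with capitals marking a match on either strand, so that ATTGG and TTCAAA are CCAAT and TTTGAA read from the other strand. Cdk1 lies at chr10:69352913-69353062 on the minus strand and Top2a, the topoisomerase that untangles chromosomes, at chr11:99024190-99024339 on the minus strand. Chaf1b, a chromatin assembly factor of replicating DNA, lies at chr16:93883751-93883900 on the plus strand, and Idi1, an isomerase of cholesterol synthesis, at chr13:8885456-8885605 on the plus strand.
Cdk1: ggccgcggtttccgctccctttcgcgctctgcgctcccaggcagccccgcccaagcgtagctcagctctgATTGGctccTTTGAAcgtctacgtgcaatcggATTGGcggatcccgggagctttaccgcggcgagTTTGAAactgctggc
Top2a: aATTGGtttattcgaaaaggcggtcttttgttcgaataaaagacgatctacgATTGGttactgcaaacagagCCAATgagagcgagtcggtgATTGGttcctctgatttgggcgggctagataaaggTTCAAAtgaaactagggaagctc
Chaf1b: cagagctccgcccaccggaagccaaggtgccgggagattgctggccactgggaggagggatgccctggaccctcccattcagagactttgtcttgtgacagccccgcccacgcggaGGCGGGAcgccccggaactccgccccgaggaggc
Idi1: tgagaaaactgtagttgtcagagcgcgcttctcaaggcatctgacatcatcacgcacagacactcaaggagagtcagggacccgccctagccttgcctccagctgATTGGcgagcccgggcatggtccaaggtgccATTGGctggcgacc

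TTTGAA was in 78.6% of 28 windows of mitosis genes and in 58.6% of 87 windows of shared rises, against 11.8% of all windows. It was in 9.09% of 33 windows of replication genes and 5.88% of 17 windows of cholesterol genes. CCAAT was in 37.3% of all windows, 85.7% for mitosis, 60.6% for replication and 82.4% for cholesterol genes. GGCGGGA was in 36.4% of replication windows, 28.6% of mitosis windows, 27.6% of shared rises and 17.6% of cholesterol windows, against 19.9% of all. TCACNCCAC was in 1.13% of all windows and in 0 of the 17 of cholesterol genes. A match is a description of these letters and not evidence of binding.

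Shared rises outside mitosis included matrix and adhesion genes with narrow intervals for the interaction. Among the 125, the 95% interval of the interaction lay within 2-fold in 37, beside 74.13% of all genes. It held 0 in 117, and the median standard error was 0.54, beside 0.20 over all genes. Vcam1, an adhesion molecule for leukocytes, was at 208, 217 and 216 CPM in VWAT_SD, 289, 352 and 265 in VWAT_HFD, 205, 191 and 197 in SWAT_SD, and 259, 311 and 289 CPM in SWAT_HFD. The diets do not overlap in either depot, and the interaction was -0.03, with a 95% interval of -0.37 to 0.30. Adam12, a metalloprotease, rose by 0.85 in VWAT and 0.75 in SWAT on the log2 scale (interval of the interaction -0.26 to 0.46). Has2, which makes hyaluronan, rose by 0.94 and 0.65 (-0.08 to 0.66). Vcan, the proteoglycan versican that binds hyaluronan, rose by 0.87 and 0.64 (-0.20 to 0.65).

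Col3a1, the main chain of type III collagen, rose by the same 1.23 on the log2 scale in both depots. It was at 17400, 14980 and 16180 CPM in VWAT_SD and 40660, 50070 and 22940 CPM in VWAT_HFD. In SWAT it was at 40630, 40960 and 43870 CPM on SD and 109000, 114300 and 71350 CPM on HFD. SWAT_SD libraries already lay near the VWAT_HFD range. The interaction was -0.00 with a wide interval of -0.76 to 0.75, and 0.40 without the 2 libraries. Csf2, the cytokine GM-CSF, rose by 2.42 in VWAT and 2.27 in SWAT, also with a wide interval of -1.25 to 1.56.

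Of the 125 shared rises 101 were larger in VWAT, with a median interaction of 0.31. An unadjusted p under 0.05 was reached by 8, beside 7.19% of all genes. Among these, Ret, Kctd11, Nfatc1, Scd2, Bcat1 and Aldh18a1 were larger in VWAT, and Pcdh12 was larger in SWAT. Bcat1, which breaks down branched-chain amino acids, rose from 18.0 to 20.9 CPM up to 36.7 to 73.3 CPM in VWAT and from 29.9 to 32.9 up to 55.0 to 62.7 CPM in SWAT. Its interaction was 0.65, and 0.89 with an adjusted p of 0.0434 without the 2 libraries. Aldh18a1, which makes proline from glutamate, rose by 0.78 and 0.46. Pcdh12, a protocadherin, rose by 0.73 in VWAT, from 8.98 to 10.5 CPM up to 13.4 to 20.1, and by 1.51 in SWAT, from 0.325 to 0.458 CPM up to 0.836 to 1.5.

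Among the 17 shared falls were genes of retinoid handling and chemokine supply. The 95% interval of the interaction lay within 2-fold in 13 of 17, near the 74.13% of all genes, and the median interaction was -0.08. Cyp26b1, which degrades retinoic acid, was at 5.68, 1.63 and 4.01 CPM in VWAT_SD and 0.927, 0.462 and 0.710 CPM in VWAT_HFD. In SWAT it was at 115, 54.4 and 65.3 CPM on SD and 18.9, 14.0 and 13.9 CPM on HFD. The diets do not overlap, the fall was 5.37-fold in VWAT and 5.09-fold in SWAT, and SWAT stayed above VWAT on both diets. The interval of its interaction was wide, -1.27 to 1.12. Dhrs3, a retinaldehyde reductase, fell from 76.4 to 81.4 CPM down to 33.1 to 37.5 CPM in VWAT and from 72.4 to 93.1 down to 40.9 to 57.2 CPM in SWAT, with an interaction of -0.35 (-0.72 to 0.02).

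Cebpd, an early factor of fat cell differentiation, was at 1175, 1294 and 1181 CPM in VWAT_SD, 701, 523 and 662 in VWAT_HFD, 900, 966 and 1116 in SWAT_SD, and 686, 601 and 566 CPM in SWAT_HFD. It fell by 0.95 in VWAT and by 0.69 in SWAT on the log2 scale, with an interaction of -0.27 (-0.66 to 0.13). Cxcl12, a chemokine that holds blood progenitors, fell by 0.52 in VWAT and by 0.75 in SWAT. Myoc, which encodes the secreted protein myocilin, fell by 1.68 in VWAT, where it was at 4.19 to 4.85 CPM on SD, and by 1.27 in SWAT, where it was at 78.4 to 136 CPM. Mlxipl, the carbohydrate-sensing factor ChREBP, fell by 1.46 and 1.52.

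Cholesterol genes moved more upward in VWAT. All 22 tested members of the list had a positive interaction, 17 at an unadjusted p under 0.05 (beside 3.07% of all genes) and 0 at an adjusted one. Their median log2 change was 1.01 in VWAT and 0.21 in SWAT. In VWAT 19 rose (beside 8.64% of all genes), and in SWAT 1 rose (beside 0.967%). The median interaction was 0.69, and every tested member stayed positive under every alternative run, with medians of 0.57 to 0.85. Idi1, the isomerase whose promoter is shown above, was at 2.64, 4.23 and 5.58 CPM in VWAT_SD and 19.1, 15.9 and 9.55 CPM in VWAT_HFD. In SWAT it was at 4.3, 6.6 and 7.33 CPM on SD and 9.9, 8.26 and 13.5 CPM on HFD. The diets do not overlap in either depot. It rose by 1.85 in VWAT, and its change of 0.83 in SWAT did not pass (adjusted p 0.237, edgeR), with an interaction of 1.02 (SE 0.43, adjusted p 0.642).

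A later step of the pathway had a change near 0 in SWAT. Nsdhl, a sterol demethylation enzyme, was at 13.3, 15.0 and 17.8 CPM in VWAT_SD and 22.3, 22.7 and 22.9 CPM in VWAT_HFD, and at 14.8, 15.7 and 19.0 CPM in SWAT_SD and 14.9, 12.8 and 17.3 CPM in SWAT_HFD. It rose by 0.56 in VWAT and had a change of -0.12 in SWAT, where the diets overlap. Its interaction was 0.68 (SE 0.19, adjusted p 0.478 with edgeR and 0.14 with DESeq2).

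DNA replication genes rose in VWAT with little change in SWAT. All 35 tested members had a positive interaction (beside 49.37% of all genes). Of these, 19 had an unadjusted p under 0.05 (beside 3.07% of all genes) and 0 an adjusted one. Their median change was 1.03 in VWAT and 0.30 in SWAT. In VWAT 26 rose (beside 8.64% of all genes), and in SWAT only E2f8 rose (beside 0.967%). The median interaction was 0.75, ranging from 0.45 (without VWAT_HFD replicate 2, with 34 of 35 positive) to 0.98 over the alternatives. Mcm2, part of the replicative helicase, was at 4.06, 4.61 and 4.39 CPM in VWAT_SD, 10.3, 16.4 and 7.81 in VWAT_HFD, 4.65, 5.46 and 5.82 in SWAT_SD, and 5.68, 6.16 and 7.93 CPM in SWAT_HFD. It rose by 1.40 in VWAT, against 0.34 in SWAT, where the diets overlap.

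Lig1, which joins fragments of the new strand, rose by 1.03 in VWAT, with 0.00 in SWAT (interaction 1.03, SE 0.29). Pole, the leading-strand polymerase, rose by 1.60, against 0.51. Chaf1b, shown above, rose by 2.17, against 0.75. In the 10 libraries, Ccne2, the cyclin that starts replication, passed the interaction at 1.48 (adjusted p 0.049), as did Rrm1, which makes deoxynucleotides. In Mcm2, Lig1, Pole, Chaf1b and Ccne2, VWAT_HFD replicate 3 was the lowest library of its group, as in Mki67 and Cdk1.

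**Figure D3:**
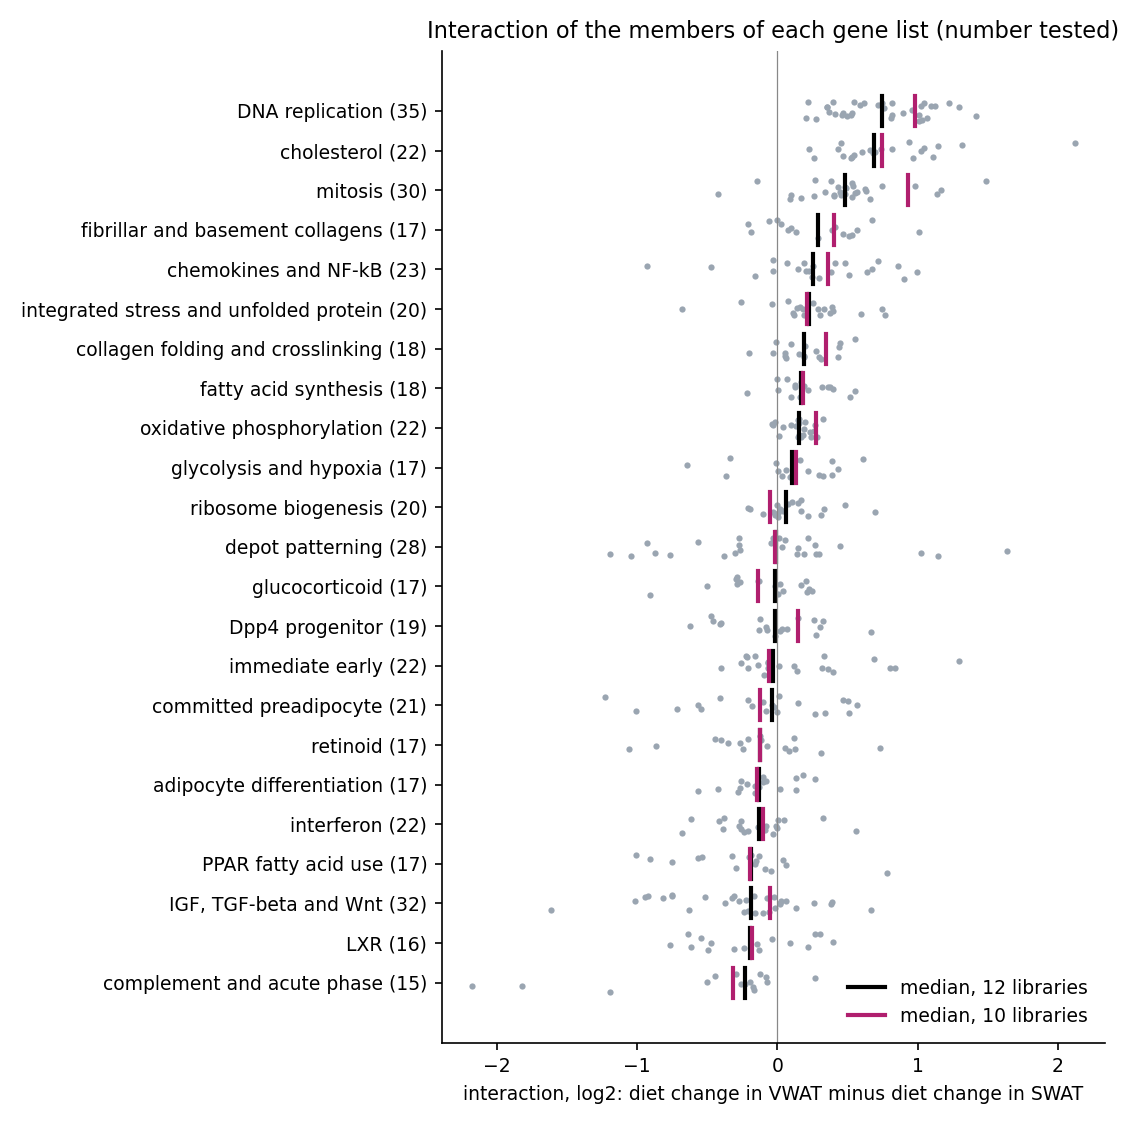
Each point is the log2 interaction of 1 tested gene (horizontal axis, 12 libraries), grouped by pathway list, with bars at the list's median over 12 and over 10 libraries. Positive values mean a diet change more upward in VWAT: every replication and cholesterol gene lies above 0, and 14 of 15 complement and acute phase genes lie below it.

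Matrix and inflammatory lists leaned the same way by less. Of 17 collagen genes, 15 rose in VWAT and 2 (Col3a1 and Col5a2) in SWAT, with a median interaction of 0.29 and 13 positive (0.17 without VWAT_HFD replicate 2). Over all genes 8.64% rose in VWAT and 0.967% in SWAT. Col5a3, a chain of type V collagen, was at 1135 to 1214 CPM in VWAT_SD and 2045 to 2591 CPM in VWAT_HFD, and at 2090 to 2486 and 2763 to 3117 CPM in SWAT. It rose by 0.94 in VWAT, and its change in SWAT was 0.40 (adjusted p 0.136), with no overlap in either depot. Col4a2, a basement membrane chain, rose by 0.89 in VWAT, against 0.32. Among 18 genes of collagen folding and crosslinking, 14 rose in VWAT and 0 in SWAT, with 15 positive interactions and a median of 0.19 (0.079 without VWAT_HFD replicate 2, 0.35 without the 2 libraries). Of 23 chemokine and NF-kB genes, 11 rose in VWAT and 1 in SWAT, with a median interaction of 0.26 and 18 positive (0.46 without SWAT_HFD replicate 3). Nfkb1, a subunit of NF-kB, rose by 0.57 in VWAT, against 0.16.

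Single genes with the strongest upward interaction included a receptor, an imprinted gene and a cytokine. Ret, the receptor for GDNF family ligands, was at 20.9, 15.3 and 15.2 CPM in VWAT_SD and 51.2, 61.0 and 70.9 CPM in VWAT_HFD. In SWAT it was at 25.8, 19.5 and 22.8 CPM on SD and 35, 37.4 and 37.3 CPM on HFD. It rose in both depots without overlap, 3.56-fold and 1.61-fold. Its interaction was 1.14 (95% interval 0.69 to 1.59), with an adjusted p of 0.452 in edgeR, 0.00153 in DESeq2 and 0.0768 without the 2 libraries. VWAT_HFD replicate 3 was the highest library here.

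Mest, an imprinted gene that rises when fat expands, was at 17.2, 22.3 and 16.9 CPM in VWAT_SD, 42.1, 45.2 and 40.8 in VWAT_HFD, 17.3, 21.0 and 22.1 in SWAT_SD, and 23.9, 22.0 and 15.8 CPM in SWAT_HFD. It rose 2.27-fold in VWAT and had a change of 0.02 on the log2 scale in SWAT, with an interaction of 1.16 (SE 0.22, DESeq2 adjusted p 0.00406). Lif, a cytokine of the IL-6 family, was at 51.4, 53.0 and 52.9 CPM in VWAT_SD, 105, 135 and 79.9 in VWAT_HFD, 51.4, 52.4 and 43.0 in SWAT_SD, and 46.0, 51.4 and 52.2 CPM in SWAT_HFD. VWAT_HFD thus lay above the other 3 groups, which spanned 43.0 to 53.0 CPM. It passed the interaction with DESeq2 (adjusted p 0.0172) and in edgeR without the 2 libraries (1.21, adjusted p 0.0255).

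**Figure D4:**
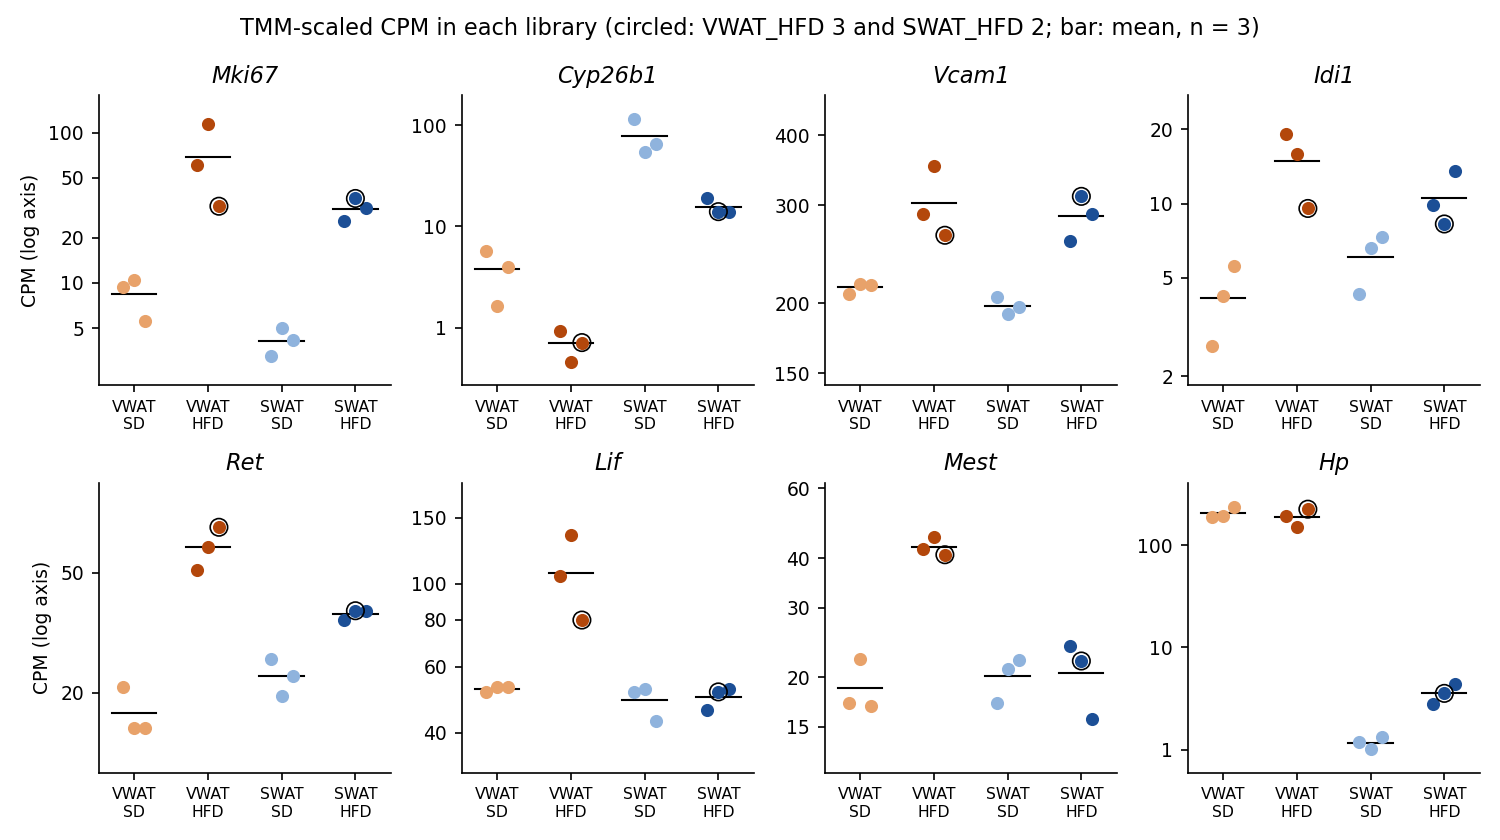
CPM of 8 genes in each library on log axes, with a bar at the mean of 3 libraries and circles on VWAT_HFD replicate 3 and SWAT_HFD replicate 2. Mki67, Cyp26b1 and Vcam1 have similar diet changes in both depots (interactions of 0.10, -0.08 and -0.03), Idi1 and Ret have larger ones in VWAT, Lif and Mest are higher in VWAT_HFD, and Hp is higher in SWAT_HFD from a level far below VWAT.

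Immediate early genes showed this difference in some members. Of 22 tested, 6 rose in VWAT (beside 8.64% of all genes) and 0 in SWAT, and 5 had a positive interaction at an unadjusted p under 0.05 (beside 3.07%), but the list's median was -0.03. Nr4a2, a nuclear receptor induced by stimuli, was at 22.6, 32.8 and 34.3 CPM in VWAT_SD and 96.4, 152 and 68.7 CPM in VWAT_HFD, against 16.6 to 24.2 and 26.1 to 29.6 CPM in SWAT. Its rise in VWAT was 1.83, against 0.53 in SWAT. Egr3, a zinc finger factor, rose by 1.41 in VWAT, with 0.60 in SWAT (interaction 0.80, SE 0.20).

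Other upward interactions joined a rise in VWAT to a SWAT change that did not pass. Heyl, a Notch target, rose from 15.8 to 20.02 CPM up to 25.9 to 42.9 CPM in VWAT, and in SWAT was at 6.84 to 12.9 CPM on SD and 6.65 to 7.69 CPM on HFD. Its interaction was 1.47 (SE 0.31, DESeq2 adjusted p 0.00923). Tslp, a cytokine, rose by 0.91 in VWAT with -0.15 in SWAT, and Itga8, an integrin chain, by 0.96 with -0.38. Plvap, a protein of endothelial diaphragms, rose by 0.93 with 0.17. Beside it, 0 of 10 listed endothelial markers passed in either depot. Tek reached 302 CPM and carries their summed level, and the other 9, Pecam1 (CD31) among them, reached at most 12.5 CPM. All 10 had a negative interaction, with a median of -0.76 and median changes of 0.23 in VWAT and 1.00 in SWAT. Without the 2 libraries 6 were positive and the median was 0.10. Their mean log2 CPM was 0.74 to 2.01 in VWAT_SD, 2.44, 1.80 and 0.16 in VWAT_HFD, 0.38 to 1.32 in SWAT_SD, and 1.26, 2.51 and 1.77 in SWAT_HFD. The part of endothelial cells in the Plvap result was not tested.

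Of the 46 interactions called without the 2 libraries, 37 were changes of the same sign that were larger in VWAT (27 upward and 10 downward). The other 9 had opposite signs, and 0 were larger in SWAT with the same sign. Leaving out VWAT_HFD replicate 3, which lay nearer VWAT_SD than its group mates did, favours larger changes in VWAT. In the 12-library fit all 46 had the same sign but a smaller size, with a median of 0.93 against 1.29, and 35 had an unadjusted p under 0.05. Dropping 1 more library left 0, 9 or 7 calls for VWAT_SD replicates 1, 2 or 3, and 10 or 0 for VWAT_HFD replicates 1 or 2. For SWAT_SD replicates 1 or 2 it left 23 or 16, and for SWAT_HFD replicate 3 it left 3. DESeq2 on 12 libraries also passed 9 of the 46, among them Hp, Lif, Mbp, Fem1b, Dos, Reep1, Rasd1 and Hsd11b2.

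Hsd11b2, which inactivates glucocorticoids, was at 1.62, 2.20 and 1.48 CPM in VWAT_SD and 8.34, 8.85 and 3.74 CPM in VWAT_HFD. In SWAT it was at 5.64, 6.60 and 5.27 CPM on SD and 7.89, 5.75 and 8.93 CPM on HFD, where the diets overlap. It rose by 1.99 in VWAT against 0.36, with an interaction of 1.63 (1.78 and adjusted p 0.0255 without the 2 libraries). Rasd1, a small GTPase induced by dexamethasone, rose by 1.32 in VWAT with -0.47 in SWAT. Tagln, a smooth muscle protein, was at 4.23 to 6.02 CPM in VWAT_SD and at 18.0, 29.1 and 4.62 CPM in VWAT_HFD. VWAT_HFD replicate 3 lay within the SD range. The Tagln interaction of 1.47 was 2.17 (adjusted p 0.029) without the 2 libraries, 1.91 (adjusted p 0.0251) without VWAT_HFD replicate 3 alone and 1.73 without SWAT_HFD replicate 2 alone, and the last did not pass. Of the 10 listed mural markers that include Tagln, 5 had a positive interaction, with a median of -0.06. Without the 2 libraries 6 were positive and the median was 0.54. In VWAT 4 then rose and 2 fell, beside 15.1% and 13.2% of all genes. Their mean log2 CPM was 2.49 to 2.64 in VWAT_SD, and 2.86, 2.91 and 2.21 in VWAT_HFD, lowest in the library where Tagln was low. The part of mural cells in this result was not tested.

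Reep1, Mbp and Cbx7 fell in VWAT and had a negative interaction. Reep1, which shapes the endoplasmic reticulum, was at 8.54, 6.24 and 11.5 CPM in VWAT_SD and 1.85, 1.95 and 3.72 CPM in VWAT_HFD, but only at 0.238 to 0.541 CPM in SWAT. It fell by 1.81 in VWAT, its SWAT change was 0.63 and did not pass, and its interaction was -2.44 (-2.98 and adjusted p 0.049 without the 2 libraries). Mbp, myelin basic protein, was at 4.54, 5.57 and 5.21 CPM in VWAT_SD and 1.99, 1.87 and 3.16 CPM in VWAT_HFD, against 22.7 to 28.3 and 23.0 to 26.1 CPM in SWAT. It fell by 1.13 in VWAT with -0.05 in SWAT. Of the 7 tested Schwann cell markers that include Mbp, 4 had a positive interaction, with a median of 0.03. Without the 2 libraries 3 were positive and the median was -0.09. In VWAT 2 of the 7 rose and 1 fell over 12 libraries (beside 8.64% and 6.98% of all genes). The part of Schwann cells in the Mbp result was not tested. Cbx7, a Polycomb subunit, fell by 1.57 in VWAT, against -0.67 in SWAT.

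Some genes were lower in VWAT_HFD mainly in 2 of its 3 libraries. Col6a5, a collagen VI chain, was at 1504, 1370 and 1683 CPM in VWAT_SD and at 588, 557 and 1335 CPM in VWAT_HFD, against 9.90 to 22.3 CPM in SWAT. Ppl, the junction protein periplakin, was at 85.6 to 95 CPM in VWAT_SD and at 23.6, 24.8 and 92.1 CPM in VWAT_HFD. VWAT_HFD replicate 3 lay within the SD range for Ppl and just below it for Col6a5. With 10 libraries both passed, Col6a5 at -1.5 (adjusted p 0.0358) and Ppl at -1.24 (adjusted p 0.049), against -1.25 and -0.27 with 12 libraries.

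Growth factor and nuclear receptor targets leaned downward in VWAT. Of 32 IGF, TGF-beta and Wnt genes, 7 fell and 2 rose in VWAT (beside 6.98% and 8.64% of all genes) and 0 passed in SWAT. There were 23 negative interactions with a median of -0.19, and 19 with a median of -0.052 without the 2 libraries. Tgfbi, which encodes a secreted adhesion protein under TGF-beta control, was at 154, 129 and 146 CPM in VWAT_SD and 47.7, 33.8 and 54.5 CPM in VWAT_HFD, and at 358, 440 and 385 CPM and 282, 236 and 192 CPM in SWAT. The diets do not overlap in either depot. It fell by 1.66 in VWAT, and in SWAT its change was -0.74 (adjusted p 0.0619), with an interaction of -0.92 (SE 0.24). Igfbp3, which binds IGFs, fell by 1.75 in VWAT, with -0.94 in SWAT. Axin2, a Wnt target, fell by 0.76 with -0.01.

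Of 17 PPAR targets of fatty acid use, 7 fell and 1 rose in VWAT (beside 6.98% and 8.64% of all genes) and 0 passed in SWAT. Their median interaction was -0.19, with 14 negative (-0.11 without VWAT_SD replicate 3 and -0.30 without SWAT_HFD replicate 3). Pdk4, which restrains glucose oxidation, was at 43.7, 52.1 and 43.8 CPM in VWAT_SD and 15.5, 14.8 and 19.9 CPM in VWAT_HFD, and at 35.7 to 62.1 and 26.1 to 32.5 CPM in SWAT. It fell by 1.48 in VWAT, with -0.57 in SWAT. Angptl4, an inhibitor of lipoprotein lipase, fell by 0.73 with -0.20.

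LXR genes did not share 1 direction. Of 16 tested, 4 rose and 4 fell in VWAT (beside 8.64% and 6.98% of all genes) and 1 rose in SWAT (beside 0.967%). The median interaction was -0.19, with 11 negative (-0.098 without VWAT_HFD replicate 2). Nr1h3 itself was at 45, 43.3 and 43.2 CPM in VWAT_SD, 40.02, 32.2 and 45 in VWAT_HFD, 35, 31.1 and 31.8 in SWAT_SD, and 28.4, 28.9 and 38.7 CPM in SWAT_HFD. The diets overlap in both depots and the interaction was -0.15 (-0.55 to 0.26). Abca1, the cholesterol exporter, was at 259, 234 and 190 CPM in VWAT_SD and 128, 123 and 206 CPM in VWAT_HFD, and at 252, 231 and 173 CPM and 287, 270 and 192 CPM in SWAT. Its interaction was -0.77 (adjusted p 0.609). With 10 libraries Abca1 fell by 0.84 in VWAT (adjusted p 0.0075).

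Other LXR targets were called in VWAT. Pltp, which transfers phospholipids, fell by 1.10 in VWAT, with -0.49 in SWAT (adjusted p 0.106). Smpdl3a, a phosphodiesterase, was at 98.0, 91.6 and 95.5 CPM in VWAT_SD and 67.8, 49.5 and 64.2 CPM in VWAT_HFD, while SWAT stayed between 88.0 and 93.9 CPM on both diets. It fell by 0.65 in VWAT, with an interaction of -0.64 (SE 0.15, adjusted p 0.452 in edgeR and 0.0342 in DESeq2). Scd2, a desaturase, instead rose in both depots, by 0.88 and 0.48.

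Changes of the same sign that were larger in SWAT were few. Of the 1026 interactions at an unadjusted p under 0.05, 453 had the same sign and were larger in VWAT, 31 had the same sign and were larger in SWAT, and 542 had opposite signs. Of the 35 that passed with DESeq2, 1 was of the same sign and larger in SWAT, the transcription factor Sox9. It rose by 0.83 in SWAT (adjusted p 0.023, edgeR), with 0.02 in VWAT. Its interaction was -0.81 (adjusted p 0.452 in edgeR and 0.039 in DESeq2). Hp, the haemoglobin-binding acute phase protein haptoglobin, had the lowest interaction p of all genes. It was at 190, 194 and 238 CPM in VWAT_SD, 191, 149 and 224 in VWAT_HFD, 1.19, 1.02 and 1.33 in SWAT_SD, and 2.81, 3.56 and 4.39 CPM in SWAT_HFD. It rose 3.21-fold in SWAT without overlap, while VWAT diets overlap at levels far above SWAT. With log2 changes of 1.68 in SWAT and -0.14 in VWAT it counts among the opposite signs, though the VWAT change did not pass. The interaction was -1.82 (95% interval -2.40 to -1.23), with an adjusted p of 0.205 in edgeR, 2.92e-06 in DESeq2 and 0.026 in edgeR without the 2 libraries.

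Vegfa, the vascular growth factor, fell in SWAT. It was at 215, 203 and 182 CPM in SWAT_SD and 145, 127 and 129 CPM in SWAT_HFD, against 67.5, 74.5 and 67.2 CPM and 80.9, 66.7 and 65.7 CPM in VWAT. It fell by 0.58 in SWAT (adjusted p 0.0255), had a change of 0.03 in VWAT, and an interaction of 0.61 (SE 0.15, adjusted p 0.452 in edgeR and 0.0342 in DESeq2). In SWAT this brought Vegfa nearer to its VWAT level.

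Leukocyte markers were more upward in SWAT, most so in 1 library. All 10 tested had a negative interaction, 7 at an unadjusted p under 0.05 (beside 4.12% of all genes), with a median of -1.66. Their median change was -0.66 in VWAT and 1.25 in SWAT. Their summed level was 15.5 to 82.0 CPM in SWAT_HFD, with 82.0 in replicate 2, against 16.7 to 18.3 CPM in SWAT_SD, 14.7 to 24.5 in VWAT_SD and 10.4 to 14.7 in VWAT_HFD. Without the 2 libraries all 10 still had a negative interaction, with a median of -0.63. The median changes were then -0.55 in VWAT and 0.25 in SWAT, so that the larger part lay in VWAT. Beside them, Ifit3, an interferon-induced gene, was at 16.5, 12.7 and 16.4 CPM in SWAT_SD and 17.4, 21.3 and 28.7 CPM in SWAT_HFD, with 0.58 in SWAT (adjusted p 0.132) and -0.04 in VWAT. The interferon list had 18 of 22 negative interactions and a median of -0.13 (-0.071 without SWAT_HFD replicate 3, -0.23 without VWAT_HFD replicate 1). The part of leukocytes in it was not tested.

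Few genes had opposite diet changes at an unadjusted p under 0.05 in both depots, and none passed in both over 12 libraries. Among interactions at an unadjusted p under 0.05, the 2 estimates had opposite signs in 542 of 1026. Among those that passed with DESeq2 they did so in 16 of 35. Over all genes 73.59% had the same sign. Choosing genes by a large difference of their 2 changes favours opposite signs, so these counts do not show that opposite diet changes were common. At an unadjusted p under 0.05 in both, 24 genes had opposite signs (0.1682% of 14266), 8 up in VWAT and 16 up in SWAT, against 1355 with the same sign. Without the 2 libraries these numbers were 19 and 1481. In 40 genes (0.2804%) the HFD libraries lay beyond the SD libraries in both depots but in opposite directions.

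Serpina3c, a serine protease inhibitor, met both descriptions. It was at 26.9, 29.98 and 34.6 CPM in VWAT_SD and 25.1, 18.4 and 22.9 CPM in VWAT_HFD, and at 54.5, 61.0 and 62.3 CPM in SWAT_SD and 71.6, 87.3 and 72.3 CPM in SWAT_HFD. It fell by 0.46 in VWAT (adjusted p 0.0309), and its change in SWAT was 0.38 (adjusted p 0.191). The interaction was -0.84 (SE 0.18, adjusted p 0.452 in edgeR and 0.0288 in DESeq2). Adcyap1r1, the receptor for the peptide PACAP, was at 43.6 to 57.2 CPM in VWAT_SD and 66.4 to 71.5 CPM in VWAT_HFD, and at 46.2 to 53.4 and 34.0 to 45.6 CPM in SWAT. The diets do not overlap in either depot, and the changes were 0.38 and -0.36, with an interaction of 0.74 (DESeq2 adjusted p 0.0431).

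Cldn10, a tight junction protein, fell from 1.26 to 1.72 CPM down to 0.645 to 0.863 CPM in VWAT. In SWAT, where it was at 21.4 to 30.4 CPM on SD and 28.3 to 36.9 CPM on HFD, its change was 0.34. Aif1l, an actin-binding protein, had changes of 0.47 and -0.35, and Tle1, a corepressor, of -0.22 and 0.25, and neither passed in either depot. Ecscr, a protein of endothelial cells, was at 2.54 to 2.86 CPM in VWAT_SD and 5.88, 4.90 and 2.0 CPM in VWAT_HFD, and at 9.72 to 15.7 and 7.18 to 9.16 CPM in SWAT. Without VWAT_HFD replicate 3 it passed in both depots in opposite directions, at 1.02 (adjusted p 0.00181) and -0.66 (adjusted p 0.0436), the only such gene in that fit.

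Genes that pattern the depots had interactions of both signs. Of 28, 2 rose and 5 fell in VWAT (beside 8.64% and 6.98% of all genes) and 0 passed in SWAT, with 14 positive interactions and a median of -0.01. Hoxc10, a posterior homeobox gene, was at 1.09, 0.719 and 0.997 CPM in VWAT_SD and 0.489, 0.602 and 0.452 CPM in VWAT_HFD, against 20.2 to 24.9 and 23.0 to 27.1 CPM in SWAT. It fell by 0.87 in VWAT, with 0.17 in SWAT. Hoxa10 likewise fell by 1.12 in VWAT, from 0.487 to 1.01 CPM down to 0.303 to 0.409, with 0.08 in SWAT at 8.38 to 10.1 CPM. Both are low in VWAT and high in SWAT, so these falls widened a difference that was there on SD. Meox1, a homeobox factor, rose by 0.66 in VWAT with -0.36 in SWAT.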

How the data were processed

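The authors deposited raw read counts per gene, with no normalization, in 1 table, made with TopHat and HTSeq on mm9 per the submitters' processing notes; versions and the strand setting are not given in the sources used here, so overlapping and antisense genes are uncertain. The 3 entries that name no gene were left out. The 12 libraries held 17.6 M to 56.1 M counts. Counts were tested with edgeR 4.0.16 (quasi-likelihood, robust, TMM scaling, filterByExpr, R 4.3.3) in 1 fit of 4 groups, with Benjamini-Hochberg adjustment over all genes and a threshold of 0.05. A gene "rose", "fell" or "passed" under that threshold. CPM are TMM-scaled. DESeq2 1.42.0 and limma voom 3.58.1 were alternatives, as were other scalings, filters, a replicate block and each library left out. Scripts were tested on simulated data. The comparison, the gene lists and the pair of libraries left out together were chosen with earlier results of these data known. Named genes were, among those with a mean of at least 5 CPM in the highest group, the 8 lowest interaction p or largest shared changes in each direction, up to 6 opposite changes, up to 3 per list, and Nr1h3, Abca1, Mki67, Col3a1, Cyp26b1 and Ret. Others, such as Idi1, Cdk1, Vcam1, Has2, Vcan, Adam12, Csf2, Bcat1, Pcdh12, Cxcl12, Mlxipl and Ccne2, were chosen after their values were seen. Some genes of the lists and calls are counted but not reported by name here.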

Additional observations from a re-analysis of the deposited data

Results flagged for a closer look

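In 4 named genes every HFD library lay beyond every SD library in both depots, but in opposite directions. Over all genes tested, 40 (0.2804%) did so, against 1641 (11.5%) in the same direction. Serpina3c and Adcyap1r1 were named for their opposite changes, so their place here follows in part from that choice. Serpina3c had an interaction of -0.84, higher in SWAT_HFD and lower in VWAT_HFD. Adcyap1r1 had one of 0.74, the other way round. Lpl, lipoprotein lipase, had 0.27, at 1061 to 1222 CPM in VWAT_SD, 1229 to 1341 in VWAT_HFD, 1787 to 1839 in SWAT_SD and 1634 to 1774 in SWAT_HFD. Des, the muscle filament desmin, had -0.85, at 76.4 to 92.6 CPM in VWAT_SD, 65.6 to 73.5 in VWAT_HFD, 4.78 to 6.15 in SWAT_SD and 6.15 to 10.3 in SWAT_HFD. None of the 4 passed the edgeR interaction over 12 libraries. The adjusted p was 0.452, 0.452, 0.745 and 0.470 in this order.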

How the results depend on the processing

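Limits: 3 pools a group, with 1 library able to move most counts; the cause was not tested. With 12 libraries, calls for the interaction, SWAT, shared changes and larger-in-VWAT interactions were 35, 536, 438 and 18 with DESeq2. Limma voom gave 12 in SWAT and 7 shared, and a mean CPM of at least 5 gave 54 and 44. Library size alone gave 263 in SWAT, 4617 for the mean and 222 shared. The median change of all genes was then -0.13 in VWAT and -0.18 in SWAT, against -0.017 and -0.0015 in the main fit. Calls were split as 799 up and 1822 down in VWAT, 101 and 162 in SWAT, 836 and 3781 for the mean. The replicate block gave 1 interaction (Hp, -1.77, adjusted p 0.0181), 247 in SWAT and 217 shared, and 0 interactions within diet; same-numbered VWAT and SWAT libraries had deviations that correlated at 0.18, 0.18 and 0.40 on SD and -0.08, 0.18 and 0.07 on HFD, and each SD library correlated best with its own number (3 of 3 in both depots) but HFD libraries did so in 1 of 3 (VWAT) and 2 of 3 (SWAT), so numbers were not taken as pairs. Without VWAT_HFD replicate 3 and SWAT_HFD replicate 2 counts were 46 interactions, 4054 in VWAT, 249 in SWAT, 234 shared and 37 larger in VWAT. Leaving out 1 library at a time gave 0 to 135 interactions, 757 to 4266 in VWAT, 0 to 615 in SWAT, 1548 to 4644 for the mean, 0 to 547 shared and 0 to 106 larger in VWAT. The 46 became 22 with DESeq2 size factors, 16 at a mean CPM of at least 5, 300 with DESeq2, 18 with limma voom, 247 with a replicate block and 0 to 48 with 1 more library left out, where a lone library was assumed to vary like the other groups. Of 3621 values of named genes under alternatives, 3367 kept direction and side of the threshold, 88 newly passed and 111 no longer passed. The other 55, in interactions of 19 genes, had the opposite sign, and 0 of these passed under either setting. Leaving out libraries (1 or both) gave interactions of Adhfe1 -0.51 to 0.099, Car3 -0.069 to 0.72, Cdca3 -0.16 to 0.74, Cenpf -0.49 to 0.54, Col3a1 -0.26 to 0.40, Cyp26b1 -0.44 to 0.34, D17H6S56E-5 -0.22 to 0.84, Depdc1a -0.87 to 0.11, Dlgap5 -0.55 to 0.34, Hmmr -0.18 to 0.79, Hrh2 -0.13 to 0.26, Kif23 -0.14 to 0.92, Kif4 -0.069 to 1.07, Mki67 -0.46 to 0.58, Nr1h3 -0.31 to 0.020, Pecam1 -1.32 to 0.099, Ppl -1.24 to 0.052, Rspo1 -0.14 to 0.20 and Wt1 -0.23 to 0.55. Opposite signs also came with limma voom for Cdca3 (-0.072), Cenpf (-0.057), Hmmr (-0.062) and Mki67 (-0.066), with the replicate block for Cenpf (-0.092, and -0.10 within diet) and Mki67 (-0.059 and -0.076), and for Col3a1 with DESeq2 size factors (0.0036), DESeq2 (0.0036) and library size alone (0.066).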

Other observations

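Fatty acid synthesis genes leaned with the cholesterol genes by less. Of 18, 6 rose and 1 fell in VWAT and 1 rose and 1 fell in SWAT (over all genes 8.64% and 6.98%, and 0.967% and 0.147%), with a median interaction of 0.17 and 17 positive. Acsl3, which activates long-chain fatty acids, was at 12.5 to 14.2 CPM in VWAT_SD, 20.8 to 24.8 in VWAT_HFD, 14.3 to 17.0 in SWAT_SD and 16.7 to 20.4 in SWAT_HFD. It rose by 0.77 in VWAT, with 0.25 in SWAT. Elovl6, a fatty acid elongase, rose by 0.60 with 0.05. Of 20 stress-response genes, 5 rose in VWAT and 0 passed in SWAT, with 17 positive interactions and a median of 0.22 (0.14 without VWAT_HFD replicate 2). Sesn2, a stress-induced inhibitor of growth signalling, rose by 1.26 in VWAT, with 0.51 in SWAT, and passed the interaction without the 2 libraries that stood apart (0.96, adjusted p 0.0358). Genes of oxidative phosphorylation had 19 of 22 positive interactions with a median of 0.15 (0.062 without VWAT_HFD replicate 1, 0.29 without VWAT_HFD replicate 3), and 0 at an unadjusted p under 0.05.

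Complement and acute phase genes leaned the other way. Of 15, 7 fell and 0 rose in VWAT and 1 rose and 1 fell in SWAT, with 14 negative interactions and a median of -0.23 (-0.10 without VWAT_HFD replicate 2, -0.36 without VWAT_SD replicate 2). Of 17 retinoid genes, 6 fell and 1 rose in VWAT (beside 6.98% and 8.64% of all genes) and 2 fell in SWAT (beside 0.147%). Aldh1a3, which makes retinoic acid, was at 283, 293 and 300 CPM in VWAT_SD, 170, 161 and 242 in VWAT_HFD, 104 to 169 in SWAT_SD and 146 to 173 in SWAT_HFD. It fell by 0.61 in VWAT, with 0.25 in SWAT and an interaction of -0.86 (SE 0.25). Of 17 glucocorticoid targets, 6 fell in VWAT and 1 in SWAT, with a median interaction of -0.02 that was -0.14 without the 2 libraries. Genes of early Dpp4+ progenitors had interactions of both signs. Of 19 tested, 9 were positive and 10 negative, with a median of -0.02. Without the 2 libraries 14 were positive and the median was 0.15. In VWAT 2 rose and 3 fell (beside 8.64% and 6.98% of all genes), and 0 passed in SWAT. Among them, Pi16 had an interaction of -0.46, with -0.32 in VWAT and 0.14 in SWAT.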
